A study of Mus musculus with 16 samples.

Results

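The induced pluripotent stem cell (iPSC) line TTF4 had the highest general level of promoter CpG methylation of the 4 lines studied, and the 266 promoters described here are the exceptions at which it was the lowest line. They were taken from the 48866 promoters on chromosomes 1 to 19 with a methylation fraction in all 4 lines. A promoter was a member when its fraction in TTF4 lay at least 0.1 below the fraction in each of PTC11, PTC12 and TTF1. The members made up 0.544% of the promoters compared. Since the members were chosen by the methylation fractions, every methylation value of a member below is a description and carries no test, while the histone marks of the same genes were measured separately and were tested.

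PTC11 and PTC12 are iPSC lines made from kidney proximal tubule cells (PTC), and TTF1 and TTF4 are lines made from tail tip fibroblasts (TTF). All came from young adult transgenic mice, heterozygous for SLC34a1-GCE, a tdTomato reporter, the rtTAROSA (neo-in) allele and OKMS-250, that is, doxycycline-inducible Oct4, Klf4, c-Myc and Sox2, and fed tamoxifen. In the PTC lines the Cre recombinase that removes the neo cassettes from the tdTomato and rtTA alleles was driven from SLC34a1, a transporter gene of mature proximal tubules, whereas the fibroblasts received Cre from a plasmid that does not integrate. Each line is a clone grown on mouse embryonic fibroblast feeders and no longer dependent on doxycycline. The sources used here do not tie a line to a particular mouse. The data used here hold, for each line, 1 library of CpG methylation by nanopore sequencing, 1 of H3K4me3 and 1 of H3K36me3 by ChIP-seq. A value of TTF4 therefore has no replicate of its own here, although the paper reports that its ChIP was done in duplicate.

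CpG methylation is the addition of a methyl group to the cytosine of a CG dinucleotide. Promoters dense in CpGs are usually free of it in every tissue, while promoters poor in CpGs are methylated in most somatic and pluripotent cells. Imprinted promoters are a special class that carry methylation on the copy from 1 parent only. H3K4me3 marks active or poised promoters, and H3K36me3 is laid down over the bodies of transcribed genes. Long tandem arrays of small nucleolar RNAs (snoRNAs), pseudogenes and the large olfactory and vomeronasal receptor families, which serve smell and pheromone sensing, are mostly poor in CpGs and repeated in the genome.

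The sequences below show the kinds of promoter among the members. For 75 members RefSeq gives a promoter window of 250 bases before to 50 bases after the start site, in build GRCm38.p6 (mm10). CpGs are in capitals and the sequences read 5′ to 3′ along the gene's own strand. The first 3 are dense in CpGs, with 13, 15 and 30 in 300 bases, and the fourth, from the protein coding member with the largest gap, holds 0.
Peg3, chr7:6730370-6730669, minus strand: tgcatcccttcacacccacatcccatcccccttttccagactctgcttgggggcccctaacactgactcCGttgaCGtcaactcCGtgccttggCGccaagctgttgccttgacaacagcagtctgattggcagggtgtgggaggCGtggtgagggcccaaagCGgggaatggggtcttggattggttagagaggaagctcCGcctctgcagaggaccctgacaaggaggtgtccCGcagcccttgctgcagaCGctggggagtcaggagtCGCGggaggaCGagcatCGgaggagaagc
Setdb1, chr3:95357153-95357452, minus strand: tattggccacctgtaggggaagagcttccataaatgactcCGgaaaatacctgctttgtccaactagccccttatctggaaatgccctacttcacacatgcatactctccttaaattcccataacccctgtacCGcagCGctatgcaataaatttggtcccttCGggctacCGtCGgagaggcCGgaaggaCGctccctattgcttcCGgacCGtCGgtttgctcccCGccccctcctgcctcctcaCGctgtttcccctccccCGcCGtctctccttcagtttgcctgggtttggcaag
Flnc, chr6:29433006-29433305, plus strand: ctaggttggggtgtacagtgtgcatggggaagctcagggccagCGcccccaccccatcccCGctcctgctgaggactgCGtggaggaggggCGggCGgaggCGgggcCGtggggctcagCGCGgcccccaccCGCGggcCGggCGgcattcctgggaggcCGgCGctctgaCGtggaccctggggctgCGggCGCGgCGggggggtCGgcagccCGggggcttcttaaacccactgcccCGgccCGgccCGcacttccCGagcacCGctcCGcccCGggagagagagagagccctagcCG
Cyp3a59, chr5:146079008-146079307, plus strand: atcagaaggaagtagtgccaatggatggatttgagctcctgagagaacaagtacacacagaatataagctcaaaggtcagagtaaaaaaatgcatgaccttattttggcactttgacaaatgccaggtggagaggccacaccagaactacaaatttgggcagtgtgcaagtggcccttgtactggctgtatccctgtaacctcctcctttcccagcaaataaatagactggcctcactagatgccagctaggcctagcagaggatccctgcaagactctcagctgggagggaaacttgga

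A further set of members lay in a tandem array of snoRNA genes on chromosome 7, where many copies are nearly or fully identical. The whole genes of 4 of these members are given here, because the likeness of the copies bears on how their values can be read. Gm24137 differed from Gm25741 by G70C and C77A, and Gm22941 differed from Gm26188 by C11T and C71T, with positions counted from 1 at the 5′ end of the first gene named and written as the base in Gm25741 or Gm26188, the position and the base in the other copy.
Gm25741, chr7:59466292-59466370, minus strand: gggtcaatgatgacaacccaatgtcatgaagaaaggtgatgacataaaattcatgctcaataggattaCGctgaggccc
Gm24137, chr7:59610133-59610211, minus strand: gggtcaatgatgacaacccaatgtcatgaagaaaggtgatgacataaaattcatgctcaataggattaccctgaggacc
Gm26188, chr7:59723644-59723737, minus strand: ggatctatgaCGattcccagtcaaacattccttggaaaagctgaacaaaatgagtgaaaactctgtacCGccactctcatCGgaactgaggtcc
Gm22941, chr7:59786818-59786911, minus strand: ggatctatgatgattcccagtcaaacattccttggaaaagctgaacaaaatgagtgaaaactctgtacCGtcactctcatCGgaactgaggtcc

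Over all 48866 promoters the mean fraction was 0.366 for PTC11, 0.475 for PTC12, 0.372 for TTF1 and 0.643 for TTF4. By the same rule, 9211 promoters were lowest in PTC11, 1574 in PTC12 and 8978 in TTF1. TTF4 was the highest line by at least 0.1 at 25773 promoters, or 52.7%. TTF4 was the lowest line by any margin at 1426 promoters, or 2.92%, of which the members are those with the larger gaps. The 5 defining pluripotency genes Pou5f1, Nanog, Sox2, Dnmt3b and Lin28a had H3K4me3 in all 4 lines, as did 13 of 26 genes of a wider pluripotency list in TTF4 against 23 in each other line. Of 30 fibroblast genes, 16 carried H3K4me3 in TTF4, 10 in PTC11, 22 in PTC12 and 21 in TTF1, and a part of feeder or donor cells in the results below was not tested.

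TTF4 went from the highest line over all promoters to the lowest at the members, as the rule requires, while PTC12 stayed the highest of the other 3 lines. The median fraction was 0.638 for PTC11, 0.676 for PTC12, 0.647 for TTF1 and 0.333 for TTF4. The median member stood at percentile 85.6 of all promoters within PTC11, 70.2 within PTC12 and 83.3 within TTF1, but at 22.5 within TTF4. The CpG-dense members described below were an exception, with medians in the 3 other lines that lay below the medians of all promoters. In TTF4, 57 of the 266 were under 0.1 and 22 were listed at 0. The share at 0 was 8.27%, against 0.469% of all promoters in that line, and the rule itself favours such low TTF4 values.

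**Figure D1:**
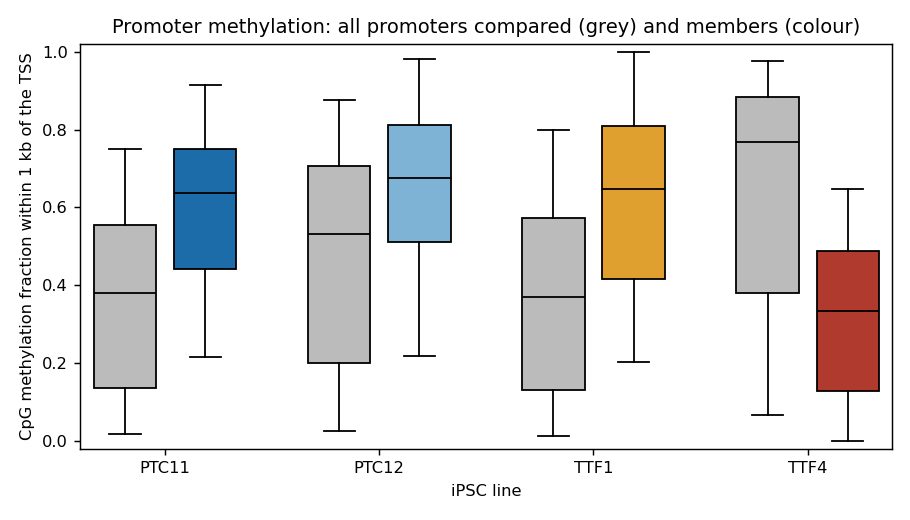
CpG methylation fraction within 1 kb of the transcription start site (y axis) by iPSC line (x axis), for all promoters compared (grey boxes) and for the 266 members (coloured boxes). Boxes span the quartiles with the median as a line and whiskers run from the 5th to the 95th percentile; the members' medians, 0.638 to 0.676, lie above the grey medians in PTC11, PTC12 and TTF1, and their median of 0.333 lies below the grey one in TTF4.

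The gap between TTF4 and the nearest other line had a median of 0.171 and ran from 0.100 to 0.635. It reached 0.2 at 102 members and 0.4 at 14. For 132 of the 266 the gap was larger than the whole spread among the 3 other lines, and for the other 134 it was not. Just inside the limit were the pseudogenes Gm44128, with a gap of 0.1002, and Gm43043, with 0.101, and just outside it were the pseudogenes Gm1988, with 0.0999, and Gm49982, with 0.0993. Within 0.02 of the limit there were 45 members and 72 promoters that just missed it. The largest gaps belonged to CpG-poor loci. The pseudogene Gm3665 had fractions of 0.833 for PTC11, 1 for PTC12, 0.635 for TTF1 and 0 for TTF4 over a window of 9 CpGs. That window has close copies elsewhere in the genome, with a mapping score, explained below, of 12. The pseudogene Gm18896 had 0.75, 1, 0.7 and 0.1 in the same order over 8 CpGs. The deposited fractions come without read coverage, so the precision of such values is unknown. In TTF4, 44 of the 266 members (16.5%) were listed at exactly 0, 0.333, 0.5, 0.667 or 1, against 4.21% of all promoters. These shares are not alike, because the rule favours low TTF4 values and excludes 1. Of the 44 members 22 were listed at 0, while 1544 of all promoters were listed at 1 in TTF4. Of the 44 promoters in the whole table listed at exactly 0.333 in TTF4, 14 were members. Among the CpG-dense members described below the simple fraction found in TTF4 was 0, at 7 of 49.

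CpG-poor and CpG-dense promoters formed separate kinds within the set when it was read by the number of CpGs within 1000 bp of the start site. The median member had 11 CpGs, against 27 for all promoters, and 176 members had fewer than 20, or 0.996% of such promoters. At these 176 the median fraction fell from between 0.667 and 0.714 in the other lines to 0.357 in TTF4. The 41 members with 20 to 39 CpGs (0.302% of such promoters) had similar medians, 0.659 to 0.704 in the other lines and 0.387 in TTF4. The other kind was CpG-dense: 49 members had at least 40 CpGs, 28 of them protein coding. They were 0.278% of the 17626 such promoters, below the 0.544% of all promoters. Their median was 0.272 for PTC11, 0.300 for PTC12, 0.265 for TTF1 and 0.0573 for TTF4, and 31 of the 49 were under 0.1 in TTF4. For 34 of the 49 the gap was larger than the spread among the other lines. Over all promoters with at least 80 CpGs the median was 0.0557 for PTC11, 0.0799 for PTC12, 0.0564 for TTF1 and 0.173 for TTF4, whereas the 12 members in that class had 0.230, 0.268, 0.240 and 0.0575. Over all promoters with 40 to 79 CpGs the medians were 0.187, 0.255, 0.194 and 0.480 in the same order, and the 37 members there had 0.281, 0.303, 0.270 and 0.0538. Since a member must be at 0.1 or more in each other line, the rule itself sets the other lines above the usual level of the densest promoters.

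**Figure D2:**
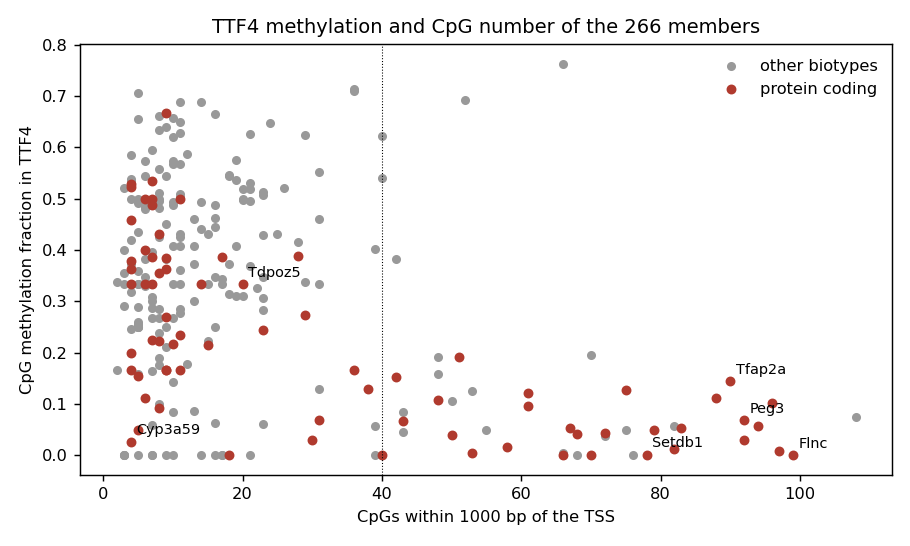
CpG methylation fraction in TTF4 (y axis) against the number of CpGs within 1000 bp of the start site (x axis) for the 266 members, 1 point each, with protein coding genes in red and other biotypes in grey. The dotted line marks 40 CpGs; to its right 31 of 49 members lie under 0.1, and to its left the values spread from 0 to 0.71.

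The likeness of a promoter to other parts of the genome was measured by aligning its 2 kb window back to the genome. A mapping quality below the top score of 60, which marks a window with close copies elsewhere, was given to 51 members (19.2%) against 3.40% of all promoters, and a score below 10 to 12 members (4.51%) against 0.499%. Only 1 of the 49 CpG-dense members had a score below 60. Repeat-masked sequence filled a median of 23.5% of the members' windows and 17.8% of all windows. The part of read placement in the members' values was not tested.

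Protein coding genes were 75 of the 266 members, from 20054 compared (0.374%). Pseudogenes of all kinds were 89 of 10721 (0.830%), snoRNAs 21 of 1359 (1.55%), long intergenic RNAs 22 of 4836 (0.455%) and small nuclear RNAs 10 of 1229 (0.814%). Chemosensory receptors, a grouping made after the values were seen, gave 31 of 1636 genes and pseudogenes (1.89%). They were 17 of 1217 olfactory receptors (1.40%) and 14 of 419 vomeronasal receptors (3.34%), and all 31 had under 20 CpGs. The share of the whole table was 0.544%, and that of all promoters with fewer than 20 CpGs was 0.996%. The shares of pseudogenes and small nuclear RNAs lay below the latter, but they were counted over every CpG number and are not matched to it. Chemosensory receptors with fewer than 20 CpGs gave 31 of 1570 (1.97%). These shares are counts with no test.

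The 10 protein coding members with the largest gaps had between 4 and 20 CpGs and included genes of epidermis, gut, pheromone sensing, smell and drug metabolism. Cyp3a59, a cytochrome P450 of the family that oxidises drugs and steroids, had 0.85 for PTC11, 0.625 for PTC12, 0.430 for TTF1 and 0.0267 for TTF4, so that the other lines were spread widely and TTF4 was close to 0. Its window held 4 CpGs. Kprp, a keratinocyte proline-rich protein of the epidermis, had 0.538, 0.949, 0.640 and 0.154 in the same order. Olfm4, a secreted glycoprotein of gut crypts and neutrophils, had 0.617, 0.747, 0.533 and 0.216. Trim12c, a tripartite motif protein, had 0.337, 0.297, 0.424 and 0, with the other lines closer to one another than to TTF4. The pheromone receptors Vmn1r168 and Vmn1r61 stood at 0.166 and 0.111 in TTF4 with the other lines between 0.420 and 1. Vmn1r168 had a mapping score of 28. The olfactory receptor Olfr399, at 0.522 in TTF4 and 0.821 to 0.893 elsewhere, kept an intermediate level. The remaining 3 were Gm5114, Gm2035 and Tdpoz5, with 0.167, 0.386 and 0.333 in TTF4.

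Among members with at least 20 CpGs the 10 largest gaps were at non-coding loci and at Tdpoz5. Gm9954, with 66 CpGs, had 0.377 for PTC11, 0.354 for PTC12, 0.355 for TTF1 and 0.00476 for TTF4: the 3 other lines lay within a narrow band and TTF4 was nearly free of methylation. The antisense RNA 2700069I18Rik had 0.524, 0.614, 0.563 and 0.1296. The long non-coding RNA D130079A08Rik, with 55 CpGs, had 0.305, 0.481, 0.346 and 0.0490. The pseudogene Gm3321 had 0.740, 1, 1 and 0.333 but a mapping score of 19. The others were Gm37697, Gm7133 and the snoRNAs Gm22046, Gm22912 and Gm24264, with 0.283 to 0.5 in TTF4. These snoRNAs had mapping scores of 19, 20 and 7 in that order.

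The 28 protein coding members with at least 40 CpGs are ordered here by role and were named after their values were seen. Of the transcription factors, Sox6 had 0.272 for PTC11, 0.408 for PTC12, 0.156 for TTF1 and 0.0159 for TTF4. Prrx1, a homeobox factor of limb and other mesenchyme and the only member from the fibroblast list, had 0.139, 0.143, 0.186 and 0.00490. Tfap2a, a factor of neural crest and surface ectoderm, had 0.291, 0.329, 0.270 and 0.145, the 3 other lines again close together. Dlx1, a homeobox factor of the forebrain and branchial arches, had 0.24996, 0.300, 0.258 and 0.127. Otp, Pax1 and Meis3 had 0.0538, 0.0959 and 0.122 in TTF4 and 0.185 to 0.399 in the other lines.

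Of the structural and signalling genes, Cdh11, a cadherin of mesenchymal cells, had 0.238 for PTC11, 0.224 for PTC12, 0.243 for TTF1 and 0.00793 for TTF4. Flnc, filamin C of muscle, had 0.129, 0.214, 0.273 and 0. Dll1, a ligand of Notch receptors, had 0.139, 0.141, 0.166 and 0.0289. Adora1, an adenosine receptor, had 0.216, 0.180, 0.131 and 0.0128. Casp8, the initiator caspase of death receptor signalling, stayed at 0.191 in TTF4 and at 0.308 to 0.346 in the other lines. In each of these genes TTF4 stood apart below the 3 other lines, as the rule requires, and in all but Flnc by more than those lines differed among themselves. Of the genes of chromatin, traffic and metabolism, Setdb1, a histone H3 lysine 9 methyltransferase, had 0.184, 0.320, 0.211 and 0.00114. Vps41, a subunit of the lysosomal tethering complex HOPS, had 0.187, 0.1998, 0.292 and 0. Arg2, mitochondrial arginase, had 0.287, 0.264, 0.151 and 0.0425. Oxnad1 was listed at 0 in TTF4 and at 0.175 to 0.252 elsewhere, and Exd2 at 0 and 0.101 to 0.170. A further 8 genes, namely Map3k8, Klhl14, Map9, Astn1, Mindy4, 3110082J24Rik, Wasf3 and Brms1l, ran from 0.0402 to 0.153 in TTF4 and from 0.172 to 0.351 in the other lines.

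The 21 CpG-dense members that are not protein coding, also named after their values were seen, were of 2 sorts by their level. Several antisense and long non-coding RNAs were low in TTF4 and moderately methylated in the other lines. Grip1os3 was listed at 0 in TTF4 and stood at 0.222 to 0.282 in the other lines. Pantr2 had 0.0370 in TTF4 and 0.227 to 0.284 elsewhere, Tlx1os 0.106 and 0.254 to 0.476, and Dlx6os2 0.191 and 0.418 to 0.550. A smaller sort was highly methylated in every line and least so in TTF4. Gm49238 had 0.763 in TTF4 and 0.944 to 1 elsewhere, Gm27373 0.691 and 0.823 to 0.967, and Gm48916 0.621 and 0.809 to 1. The highest TTF4 fraction among all 266 members was that of Gm49238.

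**Figure D3:**
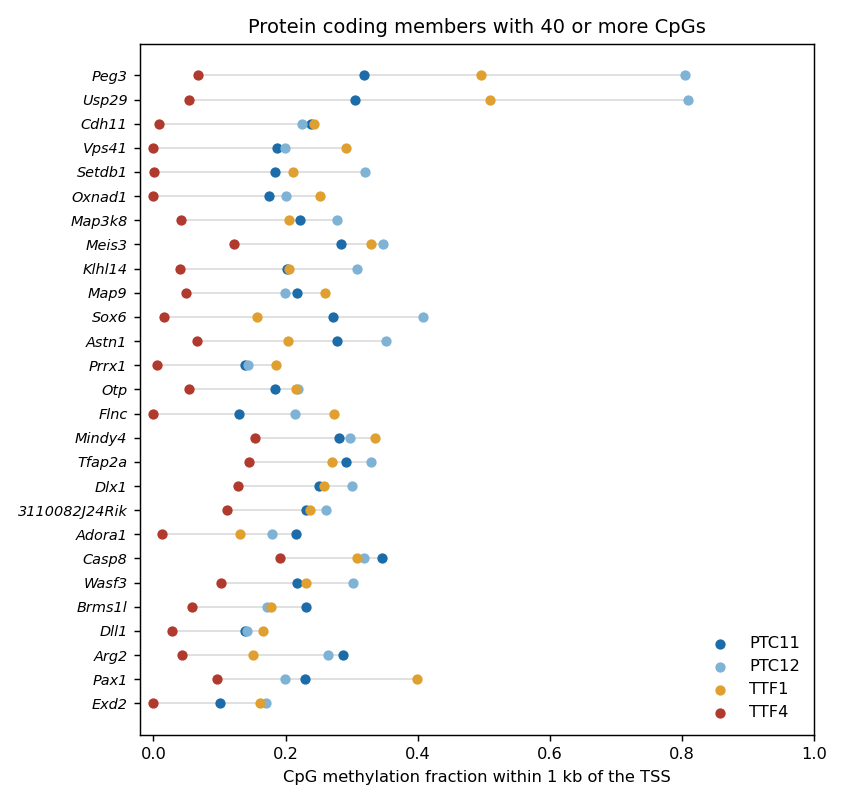
CpG methylation fraction within 1 kb of the start site (x axis) of 27 of the 28 protein coding members with at least 40 CpGs (y axis, ordered by gap), 1 point for each of the 4 lines. In Cdh11, Tfap2a and Dlx1 the other 3 lines cluster between 0.224 and 0.329, while in Peg3 and Usp29 they spread from 0.305 to 0.809; the TTF4 points run from 0 to 0.191.

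The lists of genes chosen for the tissue and cell type are small beside a share of 0.544% of all promoters, so that a count of 0 in a list is no result. None of 25 pluripotency genes, 41 germline genes, 33 proximal tubule genes, 9 kidney development genes or 15 writers and erasers of DNA methylation was a member, and the median fraction of the pluripotency list was 0.0307 for PTC11, 0.129 for PTC12, 0.0862 for TTF1 and 0.608 for TTF4. The fibroblast list gave 1 of 29 (3.45%) and the imprinted list 2 of 76 (2.63%), the pair Peg3 and Usp29 that share a start region. The list of genes of the 2-cell embryo gave 3 of 21 (14.3%), which were Arg2 and 2 members of repeated families, Tdpoz5 and Pramef25. Pramef25 had 0.418, 0.975, 0.308 and 0.0925, and Tdpoz5 had a mapping score of 3. Homeobox genes, gathered from RefSeq descriptions after the values were seen, gave 5 of 177, namely Dlx1, Hoxb3, Meis3, Otp and Prrx1. Hoxb3 had 0.518, 0.689, 0.410 and 0.243 and was the only member of 43 Hox genes.

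Most members stood alone. Of the 266, 230 had no other member within 100 kb, 20 formed 10 pairs, and 16 lay in 2 longer runs. Some pairs shared a start region, as with Stc1, a secreted glycoprotein hormone, and the antisense RNA Gm41192, whose start sites were 414 bp apart. Stc1 had 0.444, 0.583, 0.374 and 0.166, and Gm41192 had 0.340, 0.480, 0.265 and 0.0842. Dlx1 and its antisense RNA Dlx1as were 9778 bp apart, with Dlx1as at 0.603, 0.552, 0.509 and 0.403. The olfactory receptors Olfr139 and Olfr399 started 64 bp apart, so their windows are nearly the same. Others were pairs of repeated genes, as with the pheromone receptors Vmn1r167 and Vmn1r168, 32526 bp apart, which had 0.379 and 0.166 in TTF4. By chromosome, 51 members lay on chromosome 7, where they were 1.18% of the promoters compared, and 5 to 21 on each other chromosome. Both longer runs were on chromosome 7.

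TTF4 was lower relative to the other lines at promoters close to a member than at those farther away. The 36 promoters within 2 kb of a member that were not members themselves had a median difference of -0.0185 between TTF4 and the mean of the other lines. The 166 between 2 and 10 kb away had TTF4 above the mean of the other lines by a median of 0.120, and the 1252 between 10 and 100 kb by 0.191. Beyond 100 kb the median was 0.234. Windows under 2 kb apart overlap, so the first of these values is in part shared sequence. The classes within 100 kb also hold the 115 non-member sites of a single snoRNA array described below, many of them within 10 kb of a member. Their median difference was 0.0839, and the part of that array in these values was not tested. TTF4 was the lowest line at 27.8% of the promoters within 2 kb, 8.43% of those at 2 to 10 kb, 5.19% at 10 to 100 kb and 2.27% beyond 100 kb.

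The run of 3 was the shared start region of the imprinted genes Peg3 and Usp29, on chromosome 7 at 6730431 to 6730598. Peg3, a zinc finger protein, and Usp29, a ubiquitin-specific peptidase, are transcribed from the paternal copy in opposite directions, and their RefSeq promoter windows overlapped by 263 of 300 bases. Peg3 had 0.319 for PTC11, 0.804 for PTC12, 0.496 for TTF1 and 0.0679 for TTF4. Usp29 had 0.305, 0.809, 0.509 and 0.0539, and the small RNA Gm27675 had 0.287, 0.806, 0.492 and 0.0573. The 4 lines were therefore spread over most of the scale, from near 0 in TTF4 to about 0.8 in PTC12, and these 3 entries are 1 region rather than 3 observations. The next start sites were not low in TTF4. Gm44862, which lies within the Usp29 gene, had 0.468, 0.760, 0.312 and 0.918, and the imprinted gene Zim1 on the other side had 0.269, 0.583, 0.517 and 0.756. Of the 76 imprinted genes compared, TTF4 was the highest line at 53 and the lowest at 8. The imprinted genes Snurf and Snrpn, near the snoRNA array, had 0.651 and 0.936 in TTF4 and were higher there than in the other lines.

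The run of 13 covered 435936 bp of chromosome 7, from 59466370 to 59902306, and consisted of snoRNAs only. It lies in the snoRNA array beside Snrpn, whose copies are processed from a long imprinted host transcript. This span held 128 snoRNA start sites, so the members were 10.2% of them. The 13 members had medians of 0.667 for PTC11, 0.758 for PTC12, 0.663 for TTF1 and 0.368 for TTF4. The 115 others had 0.599, 0.686, 0.560 and 0.670. Over the array TTF4 thus had a median near those of the other lines, but it lacked most of the excess it had elsewhere. TTF4 minus the mean of the other lines had a median of 0.0518 over the 128 and 0.0839 over the 115 that were not members, against 0.234 for promoters more than 100 kb from a member. TTF4 was the lowest line by any margin at 29 of the 128 (22.7%) and at 16 of the 115 (13.9%), against 2.92% of all promoters. By the rule with its gap of 0.1, PTC11 was the lowest line at 15 of the 128 (11.7%), PTC12 at 8 (6.25%) and TTF1 at 28 (21.9%). Over the whole table these shares were 18.8% for PTC11, 3.22% for PTC12 and 18.4% for TTF1. For TTF4 the share was 0.544%, against 10.2% here. The span was drawn from the first to the last member of the run, so its high share of low TTF4 values is set in part by that choice.

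Many copies in this array are identical or nearly so within a family, while families differ, with 42 edits between Gm25741 and Gm26188. The 128 genes, 78 to 94 bases long, held 52 different sequences, and 109 of the 128 windows (85.2%) had a mapping score below 60. The sequence of Gm25741 printed above occurred in 22 copies, of which 3 were members, and over these 22 the TTF4 fraction ran from 0.283 to 0.927. The sequence of Gm26188 occurred in 3 copies, with TTF4 fractions of 0.521 to 0.736 and 1 member. The sequence of Gm22941 occurred in 3 copies, of which Gm22941, at 0.0625, and Gm22258, at 0.343, were members and the other stood at 0.784. In all, 9 of the 13 members had an identical gene in the array that was not a member. Gm24137, unique in its sequence, had 0.570, 0.834, 0.647 and 0, with a mapping score of 2.

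**Figure D4:**
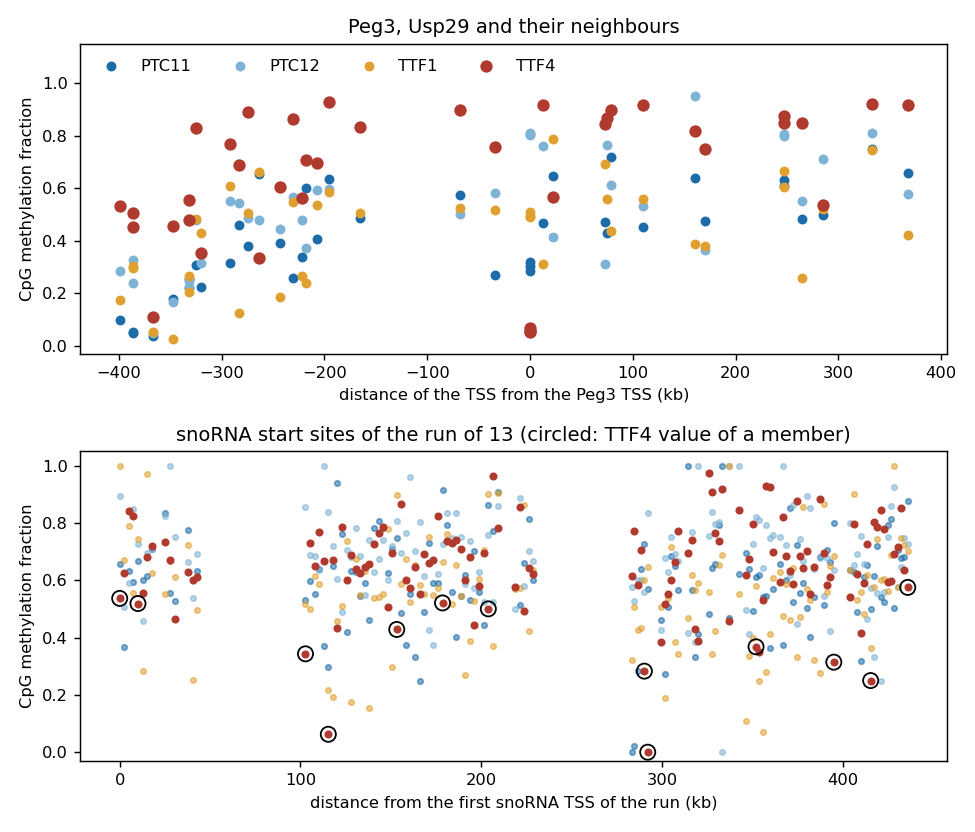
CpG methylation fraction (y axis) of start sites against distance in kb (x axis), around Peg3 (top) and along the snoRNA array (bottom), 1 point per start site and line, with the 13 snoRNA members circled at their TTF4 value. At distance 0 the TTF4 points of the 3 members lie between 0.0539 and 0.0679 while the nearest neighbours on the sides are at 0.756 and 0.918, and in the array the circled points are scattered among TTF4 values that have a median of 0.652.

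The histone marks ask whether promoters low in methylation in TTF4 also differed there in chromatin. Values are RPKM, the read density of a peak scaled to its length and to the library's total and lowered by that of the input, and a gene has no value in a line where no peak was assigned to it. The histone table lists 92 of the 266 members, and in it H3K4me3 refers to the start site and H3K36me3 to the gene body. Of the 92, H3K4me3 was present for 22 for PTC11, 37 for PTC12, 36 for TTF1 and 34 for TTF4. These are 23.9%, 40.2%, 39.1% and 37.0%, against 47.0%, 58.5%, 57.1% and 47.7% of all promoters compared. H3K36me3 was present for 55, 49, 42 and 48 members, or 59.8%, 53.3%, 45.7% and 52.2%, against 81.0%, 66.7%, 68.3% and 59.5% of all. No member had H3K4me3 in TTF4 alone, against 0.407% of all promoters, and none had it in every line but TTF4, against 2.83%.

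H3K4me3 followed CpG density. Of the 27 CpG-dense members in the table, 26 had it in TTF4, 26 in PTC12, 26 in TTF1 and 20 in PTC11. The shares were 96.3% in TTF4 and 74.1% in PTC11, whereas over all CpG-dense promoters they were 84.3% and 83.5%. All 26 with H3K4me3 in TTF1 or PTC12 also had it in TTF4, while 11.1% and 11.6% of all CpG-dense promoters with the mark in TTF1 or PTC12 lacked it in TTF4. Of the 34 members with H3K4me3 in TTF4, 12 (35.3%) had none in PTC11, against 8.28% of all promoters with the mark in TTF4. Among CpG-dense promoters alone this held for 6 of 26 members (23.1%), against 6.07% of all. Those without the mark in PTC11 included Prrx1, Flnc, Sox6, Otp, Pax1 and Astn1. Of the 12 members with 20 to 39 CpGs, 6 had H3K4me3 in TTF4 (50%), 8 in TTF1 (66.7%), 7 in PTC12 (58.3%) and 1 in PTC11 (8.33%). Of all promoters of that class 10.4% had it in TTF4, 25.4% in TTF1, 29.1% in PTC12 and 8.99% in PTC11. At members with fewer than 20 CpGs the mark was present for 2 of 53 in TTF4 (3.77%), near the 2.49% of all such promoters. Among 26 chemosensory members it was present for 2 in PTC12 (7.69%) and for 0 in each other line, against 2.84% of all chemosensory genes in PTC12 and 0.230% in TTF4. These shares rest on 1 library per line and carry no test.

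The amount of H3K4me3 did not stand out. The 22 members with a value in all 4 lines had medians of 3.35 RPKM for PTC11, 4.61 for PTC12, 4.89 for TTF1 and 3.38 for TTF4, and the 13709 genes with all 4 values had 3.73, 5.31, 5.72 and 3.72. Members thus ranked low among marked genes, at the median percentile of 27.1 to 30.8, to about the same degree in every line. TTF4 was the lowest line at 8 of the 22 members, against 47% of all genes, and the highest at 0, against 2.09%. On the log2(RPKM + 1) scale TTF4 minus the mean of the other lines had a median of -0.28 over the members and -0.31 over all genes. With the 4 libraries brought to a common distribution by quantile normalization, the median was 0.0086 over the members and -0.0028 over all genes. The limma test below was run without that normalization. On simulated data it recovered 26% of log2 changes of 2, a size that no member reached.

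None of the 22 members passed the limma test of H3K4me3 in TTF4 against the other 3 lines, in which 1.04% of all genes were called at an adjusted p under 0.05. At an unadjusted p under 0.05, 1 of 22 was found, against 2.31% of all genes. This was the antisense RNA A830092H15Rik, at 2.99 RPKM for PTC11, 4.55 for PTC12, 3.65 for TTF1 and 2.01 for TTF4, a log2 difference of -0.64 ± 0.28 (standard error) with a Benjamini-Hochberg adjusted p of 0.874 from limma. In that design 1 library stands against 3 and is assumed to vary like them. The largest difference in the same direction was at Brms1l, with 3.80, 6.79, 7.98 and 3.38 RPKM and a log2 difference of -0.67, where PTC11 was nearly as low as TTF4. Exd2, an exonuclease of DNA repair, had 4.35, 7.22, 5.91 and 3.58, and Stk3 and Map3k8, both kinases, had 4.10 and 3.86 in TTF4 with 3.50 and 3.46 in PTC11. At the other end were Setdb1, with 1.19, 1.37, 2.12 and 1.81, Klhl14, with 1.51, 3.82, 3.96 and 3.23, and Adora1, with 3.23, 3.73, 5.95 and 4.36. Cacnb2, a calcium channel subunit, had a log2 difference of -0.13. Peg3 had 2.94, 4.55, 4.93 and 3.39 RPKM, with TTF4 between PTC11 and PTC12 although its methylation was the lowest.

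The level of H3K36me3 differed from library to library. The median over the 17039 genes with all 4 values was 1.66 RPKM for PTC11, 4.04 for PTC12, 1.21 for TTF1 and 4.07 for TTF4, and the 37 members with all 4 values had 1.69, 3.63, 1.18 and 3.62. TTF4 was the highest line at 23 of the 37 (62.2%), against 48.4% of all genes, and the lowest at 0, against 1.41%. The log2 difference of TTF4 from the mean of the other lines had a median of 0.66 over the members and 0.71 over all genes, and after quantile normalization -0.082 and 0.010. The limma test was run without that normalization, so the levels of the libraries add to its spread. On simulated data it recovered 2% of log2 changes of 2, a size that no member reached (largest 1.65). A lack of calls among members therefore decides little. None of the 37 was called by limma, with 0.129% of all genes called, and 1 of 37 had an unadjusted p under 0.05, against 1.84%. That member was the pheromone receptor Vmn2r13, with 1.06 RPKM in PTC11 and 0.443 in TTF1 and listed at 0 in PTC12 and TTF4, a log2 difference of -0.52 ± 0.16 (standard error) with an adjusted p of 0.281 from limma. With a pseudocount of 0.1 it was called, with an adjusted p of 0.00369 from limma. Without the PTC12 library, whose level was near that of TTF4, 74.8% of all genes and 27 of the 37 members (73.0%) were called.

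The members with the highest H3K36me3 in TTF4 relative to the other lines were Arg2, Meis3, Dlx1, Vps41 and Olfm4. Arg2 had 1.80 RPKM for PTC11, 1.80 for PTC12, 1.36 for TTF1 and 7.28 for TTF4, a log2 difference of 1.65 that was the largest of the 37. Its methylation at the start site was the lowest in TTF4 as well, as the rule requires, and its H3K4me3 was 2.55, 3.93, 4.33 and 2.87. Meis3 had 1.17, 3.29, 1.14 and 5.22, and Dlx1 had 2.13, 3.06, 1.31 and 5.78. Vps41 had 1.60, 4.05, 0.941 and 5.26, with PTC12 not far below TTF4. The lowest after Vmn2r13 were Adora1, with 1.76, 4.50, 1.10 and 1.87, Exd2, with 1.52, 4.55, 0.875 and 1.92, Peg3, with 2.14, 4.73, 1.30 and 2.68, and Prrx1, with 2.03, 4.14, 1.90 and 3.06. In all 4 of these PTC12 was the highest line. Usp29 is in the histone table with no value of either mark in any line, although its start region is that of Peg3.

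**Figure D5:**
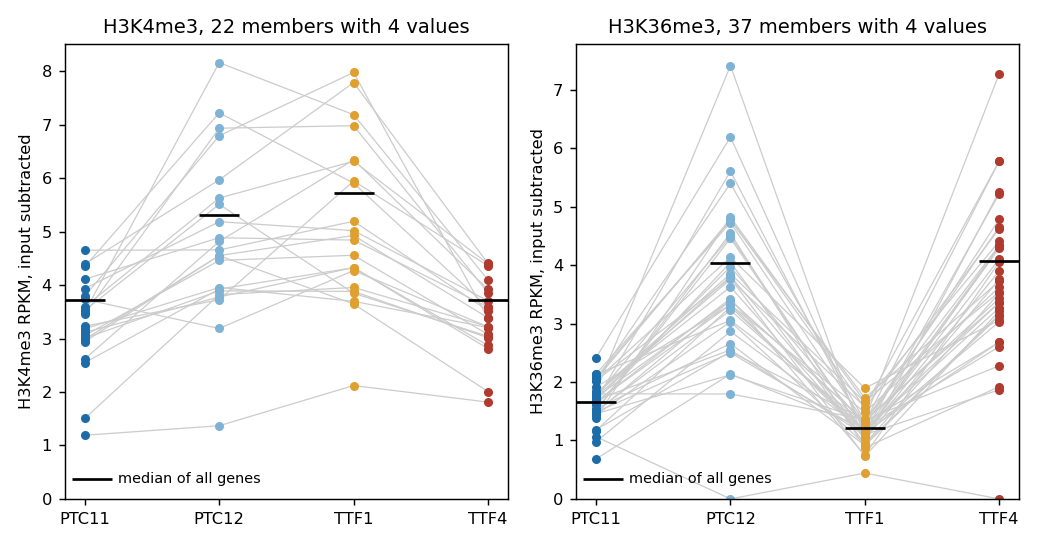
H3K4me3 (left) and H3K36me3 (right) in RPKM after input subtraction (y axis) in each iPSC line (x axis) for the 22 and 37 members with a value in all 4 lines, 1 point per member joined by grey lines, with the median of all genes as a black bar. The members move with the black bars from line to line; Arg2 is the highest H3K36me3 point in TTF4, at 7.28.

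Between cells of origin, the comparison the study was made for, no member was called either. TTF against PTC gave 0 of 22 members for H3K4me3, with 0.481% of all genes called by limma, and 0 of 37 for H3K36me3, with 0.112% called. At an unadjusted p under 0.05 there were 1 of 22, Setdb1, and 0 of 37, against 0.977% and 0.681% of all genes. Setdb1 had a log2 difference in H3K4me3 of 0.38 ± 0.14 (standard error) between TTF and PTC lines with an adjusted p of 0.726 from limma. Without the TTF4 library, which leaves TTF1 alone against the PTC lines, the log2 difference was 0.45. With 2 lines per origin the p-values of the full comparison rest on the spread between lines. Here limma drew that spread almost wholly from all genes with a similar mean level. A gene's own spread between lines hardly entered its standard error, and the same holds for the tests of TTF4. On simulated data the tests of origin recovered 24% of log2 changes of 2 for H3K4me3 and 0% for H3K36me3.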

How the data were processed

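Promoter methylation, per the labels and the study's methods, came from nanopore reads aligned to mm10. The deposited value is the fraction of methylated CpGs within 1000 bp on each side of a start site. It was averaged by the authors over windows and comes without coverage. For their own comparison the authors subtracted each sample's mean from its fractions, which was done here only as an alternative. The ChIP-seq RPKM values were made by the authors from peaks called in each library against its input, with input RPKM subtracted and peaks averaged per gene. The submitters' processing notes name minimap2 2.17-r941, Bowtie2 2.1.0, MACS2 2.0.10 and bedtools 2.17.0. Lines were grouped by their labels. The table's 55471 promoters were limited to chromosomes 1 to 19 and to those with 4 values, which left 48866. CpG counts, repeats, biotypes and windows were read from GRCm38.p6 (mm10), and windows were aligned back with minimap2 2.31-r1302. Promoter sequences are RefSeq's, and 75 members had one, 43 of them within 100 bases of the table's start site. Histone values were tested on log2(RPKM + 1), with a pseudocount of 1, over genes with a value in all 4 lines, with no further filter, by limma 3.58.1 in R 4.3.3 with a variance trend and Benjamini-Hochberg adjustment. Other steps used Python 3.11.15, pandas 2.3.3, NumPy 2.4.6 and Matplotlib 3.10.9.

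On simulated data with 100 changed genes for each size of change, the H3K4me3 test of TTF4 over 13709 genes recovered 26% at a log2 change of 2 and 92% at 6, and the H3K36me3 test over 17039 genes recovered 2% and 36%. For TTF against PTC the H3K4me3 test recovered 24% and 92%, and the H3K36me3 test 0% and 37%. The simulated noise was drawn separately for each gene and line, with each gene's residual spread in the real fit. A shift shared by all genes of a library was not simulated, although the real libraries differ in level. A lone library in a comparison is assumed to vary like the others. Exact permutation tests of single values were not used, because 1 line against 3 cannot give a two-sided p below 0.25 and 2 against 2 none below 0.33. Genes were named by rule: the 10 largest gaps among members with at least 20 CpGs, the 10 largest among protein coding members, members of the imprinted, germline, 2-cell, pluripotency, proximal tubule, fibroblast, kidney and methylation enzyme lists, and the 5 largest histone differences in each direction. Other genes, the homeobox list and the chemosensory grouping were chosen after values were seen. The members and all lists were chosen with earlier results of these data known. A gene that the rule names is not reported here. H3K27me3 was used only for the values flagged in the closing section. Alternatives were another pseudocount, quantile normalization, no variance trend, a minimum of 1 RPKM, each line left out, and other gaps, CpG minimums and centring for the member rule.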

Additional observations from a re-analysis of the deposited data

Results flagged for a closer look

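H3K27me3, the mark of Polycomb repression, was deposited as well and enters none of the comparisons above, so its few values at members are given because they are signal outside them. It was listed at very few genes, 69 and 144 in the 2 libraries labelled PTC11, 52 in TTF1 and 11 in TTF4, and no PTC12 library of it was analysed here. Of the 92 members in the histone table, Dlx1 had 3.92 RPKM and Sox6 2.75 RPKM in the second PTC11 library. Hoxb3 had 3.2 RPKM and Dlx1as 1.3 RPKM in TTF1. The first PTC11 library and the TTF4 library had a value at 0 of the 92. The values have the input subtracted, as for the other marks, and carry no test.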

How the results depend on the processing

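The number of members, 266, was 102 with a gap of at least 0.2, 523 with a gap of at least 0.05 and 90 among promoters with at least 20 CpGs. With each line's mean subtracted from its fractions it was 8052, all 266 among them, since TTF4 had the highest mean. By that centred rule 4668 promoters were lowest in PTC11, 3410 in PTC12 and 5763 in TTF1. Leaving out 1 of the other lines gave 367 (PTC12), 612 (TTF1) and 668 (PTC11). The members' median H3K4me3 difference of TTF4 turned from -0.28 to 0.0086 and that of H3K36me3 from 0.66 to -0.082 under quantile normalization, while leaving out a line kept them between -0.40 and -0.19 and between 0.41 and 0.94.

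The limma counts over all genes moved more. The H3K4me3 count for TTF4, 142, was 10 under quantile normalization, 0 without a variance trend, 10 with a mean of at least 1 RPKM, and 63 (without PTC11) to 108 with 1 line left out. The H3K4me3 count for TTF against PTC, 66, was 102 with a pseudocount of 0.1, 0 under each of the other 3 settings, and 59 to 108 (without TTF1) with 1 line left out. The H3K36me3 count for TTF4, 22, was 100 with a pseudocount of 0.1, 0 under the other 3, and 6 without PTC11, 8 without TTF1 and 12744 without PTC12. For TTF against PTC the H3K36me3 count, 19, was 44, then 0 under the other 3, and 31 without PTC11, 8 without TTF1 and 1 without TTF4. Members called, 0 in each comparison, were 1 for H3K36me3 in TTF4 with a pseudocount of 0.1 and 0 to 27 (without PTC12) with 1 line left out, and 0 to 1 (without TTF4) for H3K4me3 in TTF against PTC. The cause of these shifts was not tested. Of 85 alternatives, 51 stayed within 1.5 times the count, or within the spread between lines, and 34 did not.

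No paired analysis was possible because the line numbers 11 and 12 of PTC and 1 and 4 of TTF name clones and are not shared between the origins. In the data used, each line had 1 library of each mark that was tested. Read coverage behind the fractions is unknown, and windows with close copies elsewhere, 19.2% of the members, were not left out.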
